A study of Mus musculus with 11 samples.

Results

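Heat shock proteins are chaperones that keep other proteins folded when cells are stressed. Here 9 of their genes were followed in gonadal white adipose tissue (WAT), out of 12787 genes listed for that tissue. The 9 genes were the small heat shock proteins Cryab, Hspb1, Hspb6 and Hspb8, the inducible chaperones Hspa1a, Hspa1b, Hsph1 and Dnajb1, and the transcription factor Hsf1. They were chosen by name, with their values in the comparison described here already known, so every difference between the diets given for them below is a description that carries no test. All 9 were listed, in all 11 mice, and none was lost to the filter on low counts.

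The mice were C57Bl6/J males fed a 60% high fat diet (HFD) for 20 weeks, either alone (HFD, mice 2 to 6, n = 5) or with 0.06% w/w iodomethylcholine in the same diet (HFD + IMC, mice 7 to 12, n = 6). Iodomethylcholine (IMC) inhibits the microbial enzyme that makes trimethylamine from choline in the gut, and the comparison asked what this does to the host tissue. All were wild type, all ate the same fat content, and each gave 1 RNA library. The age of the sequenced mice was not stated, though the paper describes males that began these diets at 6 weeks of age and ate them for 20 weeks. The authors dropped 1 further control for quality.

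Depth was alike, with 22320022 to 23635249 reads per HFD mouse and 22619505 to 25155366 per HFD + IMC mouse falling on listed genes. Values are log2 CPM, the log2 of a gene's reads scaled to the library's size. Adipocyte markers were abundant in every mouse, with a summed level of 18751 to 33033 CPM over 10 genes. The 5 epididymis markers (Lcn5, Lcn8, Crisp1, Adam7 and Cst11) were not in the table. A gene was called where the adjusted p of limma was under 0.05, and by that rule 5236 of the 12787 genes, 40.9%, differed between the diets, 2556 of them higher and 2680 lower in HFD + IMC.

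When proteins unfold, the transcription factor HSF1 is released from chaperones, forms trimers and binds heat shock elements in front of its target genes. Those targets include the HSP70 genes, their HSP110 partner and HSP40 co-chaperones, which work together with ATP to refold clients. Small heat shock proteins need no ATP. They hold unfolding clients in large assemblies, and several of them are abundant in muscle and in adipocytes even without stress. Cryab encodes αB-crystallin, Hspb6 encodes HSP20, and Hspb8 works with the co-chaperone Bag3 to send damaged proteins to autophagy.

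Heat shock elements were looked for in the RefSeq promoters of the GRCm38.p6 (mm10) assembly, which run from 250 bases before to 50 bases after a start site. The search took the pair of head-to-head or tail-to-tail units GAANNTTC or TTCNNGAA, which both read the same on either strand, so both strands were covered. A promoter sequence was at hand for 7 of the 9 genes, and 6 of the 7 (85.7%) held the element in at least 1 of their promoters. Among 9749 listed genes with a promoter the share was 14.1%, and over all 32851 promoters it was 15.1%. Among 50 other chaperone genes with a promoter, 13 held it (26.0%). The stretches that hold it are printed here 5′ to 3′ on the strand of the gene, because they show which of the genes carry these letters near their start. Capitals mark the element. The stretches are the 120 bases before the start of Hspb1 (chr5:135887799-135887918, plus strand), of the second RefSeq start of Hspb6 (chr7:30553181-30553300, plus strand), of Hspa1a (chr17:34972157-34972276, minus strand) and of Hspa1b (chr17:34959239-34959358, minus strand), and the first 30 bases after the start of Hspb8 (chr5:116422835-116422864, minus strand).
Hspb1: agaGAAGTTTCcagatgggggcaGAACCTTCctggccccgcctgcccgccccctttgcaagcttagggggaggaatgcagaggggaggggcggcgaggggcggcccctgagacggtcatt
Hspb6: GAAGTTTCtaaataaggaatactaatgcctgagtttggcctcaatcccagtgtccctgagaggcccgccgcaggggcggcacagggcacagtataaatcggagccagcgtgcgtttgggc
Hspa1a: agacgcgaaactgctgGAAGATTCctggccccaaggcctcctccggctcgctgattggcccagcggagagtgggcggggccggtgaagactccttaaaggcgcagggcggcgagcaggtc
Hspa1b: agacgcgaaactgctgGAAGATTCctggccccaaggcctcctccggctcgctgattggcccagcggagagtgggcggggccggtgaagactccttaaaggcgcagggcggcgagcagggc
Hspb8: gaGAAGTTTCtaggctcgcgagtccccgag

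Hspb1 held 2 elements, beginning 117 and 97 bases before its start. Hspb6 held 1 at 120 bases, and Hspa1a and Hspa1b each held 1 at 104 bases. The promoters of Hspa1a and Hspa1b differed at 4 of 300 bases, of which 1 lies in the 120 bases printed, and the element itself was the same. Hspb8 held its element just past the start. Hsph1 was the single one of the 7 with a run of 3 alternating units, an arrangement found in the promoters of 0.626% of listed genes and in those of 4 of the 50 other chaperones (Chordc1, Dnajb6, Hspd1 and Hspe1). Its 2-unit matches share a unit. The run lies after both starts of Hsph1 whose promoters were searched, and a further 2-unit element begins 33 bases before the upstream of these 2. The RefSeq interval of the gene begins farther upstream, at chr5:149636498, and no promoter there was searched. The stretch with the run is chr5:149636287-149636316, minus strand, and reads as follows.
Hsph1: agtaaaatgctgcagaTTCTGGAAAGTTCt

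No such letters were found in the windows of Dnajb1. Cryab and Hsf1 had no promoter in the RefSeq table used. These matches are descriptions of sequence, and binding was not measured.

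All 4 small heat shock genes had a higher mean in HFD + IMC, both HSP70 genes had a lower one, and Hsph1 and Dnajb1 overlapped between the diets. Cryab stood farthest apart. Its level in HFD mice 2 to 6 was 6.36, 6.74, 6.41, 6.34 and 6.73 log2 CPM, and in HFD + IMC it ran from 7.45 through a median of 7.68 to 8.02 log2 CPM. No HFD mouse reached the lowest HFD + IMC mouse, and the gap between them was 0.71 on the log2 scale. The mean went from 92.2 ± 13.1 CPM (SD, n = 5) to 213 ± 28.2 CPM (SD, n = 6), a log2 fold change of 1.21 with a standard error (SE) of 0.10, or 2.32-fold. This placed Cryab at rank 76 of the 12787 genes by the size of its fold change.

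Hspb6 was measured at 4.04, 4.38, 4.21, 4.18 and 4.63 log2 CPM in HFD mice 2 to 6. In HFD + IMC it ran from 4.69 through a median of 4.89 to 5.13 log2 CPM, so the groups did not overlap, with the highest HFD mouse (mouse 6) just 0.06 below the lowest HFD + IMC mouse (mouse 11). Its log2 fold change was 0.62 (SE 0.12). Hspb8 read 6.43, 6.52, 6.25, 6.27 and 6.58 log2 CPM in the HFD mice and 6.60 to 7.01 log2 CPM, median 6.85, in the HFD + IMC mice. Its groups did not overlap either, but the gap was 0.02, and its log2 fold change was 0.43 (SE 0.08).

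Hspb1, which encodes HSP25 in mice, a protein that also binds actin, moved least among the small heat shock genes. Its HFD values were 3.65, 3.92, 3.50, 3.28 and 3.72 log2 CPM, and its HFD + IMC values ran from 3.66 through 3.93 to 4.18 log2 CPM. The groups overlapped, since HFD mice 3 and 6 lay within the HFD + IMC range. The log2 fold change was 0.32 (SE 0.12).

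The HSP70 genes Hspa1a and Hspa1b, which encode the classical heat-induced HSP70, were lower in HFD + IMC. Hspa1a was read at 3.01, 2.60, 2.20, 1.82 and 2.55 log2 CPM in HFD mice 2 to 6 and at 0.96 to 1.72 log2 CPM, median 1.44, in HFD + IMC. Every HFD mouse lay above every HFD + IMC mouse, by at least 0.11. The mean went from 5.62 ± 1.71 CPM (SD, n = 5) to 2.71 ± 0.54 CPM (SD, n = 6), and the log2 fold change was -1.02 (SE 0.20), the second widest of the 9. These levels rest on 48 to 179 reads per mouse, against 1820 to 5944 for Cryab.

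Hspa1b stood at 3.92, 3.36, 3.27, 3.0 and 3.36 log2 CPM in the HFD mice and between 2.57 and 3.05 log2 CPM, median 2.72, in HFD + IMC. The groups overlapped by 1 mouse on each side, HFD mouse 5 lying below HFD + IMC mouse 7. The log2 fold change was -0.64 (SE 0.14).

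Hspa1a and Hspa1b are near-identical intronless copies that neighbour each other on chromosome 17, so reads that match both could not be assigned to 1 of them, and the split between them is uncertain. Their sum does not depend on that split among the reads that were counted. The summed level was 23.2, 16.3, 14.2, 11.5 and 16.1 CPM in HFD mice 2 to 6 and 7.86 to 11.5 CPM, median 9.19, in HFD + IMC. HFD mouse 5 and HFD + IMC mouse 7 were level at 11.5 CPM, and all other HFD mice lay above all other HFD + IMC mice. The log2 fold change of the sum was -0.76 (SE 0.15). Hspa1a took 34.2% ± 2.72 of the pair's reads in HFD (SD, n = 5) and 28.6% ± 3.38 in HFD + IMC (SD, n = 6), and these shares overlapped between the groups.

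Hsph1, the HSP110 that exchanges nucleotide on HSP70, spread widely in HFD. It was read at 7.14, 6.89, 6.71, 6.29 and 6.60 log2 CPM in mice 2 to 6 and at 6.32 to 6.67 log2 CPM, median 6.40, in HFD + IMC. HFD mouse 5 was the lowest of all 11 mice and HFD mice 2, 3 and 4 were the 3 highest. The log2 fold change was -0.28 (SE 0.12), and -0.18 without HFD mouse 2.

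Dnajb1, the HSP40 that hands clients to HSP70, was read at 5.43, 5.36, 5.21, 5.16 and 5.72 log2 CPM in HFD and at 5.06 to 5.65 log2 CPM, median 5.33, in HFD + IMC. The 2 ranges lay almost on top of each other, and the log2 fold change was -0.05 (SE 0.11). Hsf1 itself was read at 5.23, 5.03, 5.02, 4.98 and 5.24 log2 CPM in HFD and at 4.78 to 5.02 log2 CPM, median 4.83, in HFD + IMC. Only HFD + IMC mouse 9 reached into the HFD range. Its log2 fold change was -0.24 (SE 0.07).

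**Figure D1:**
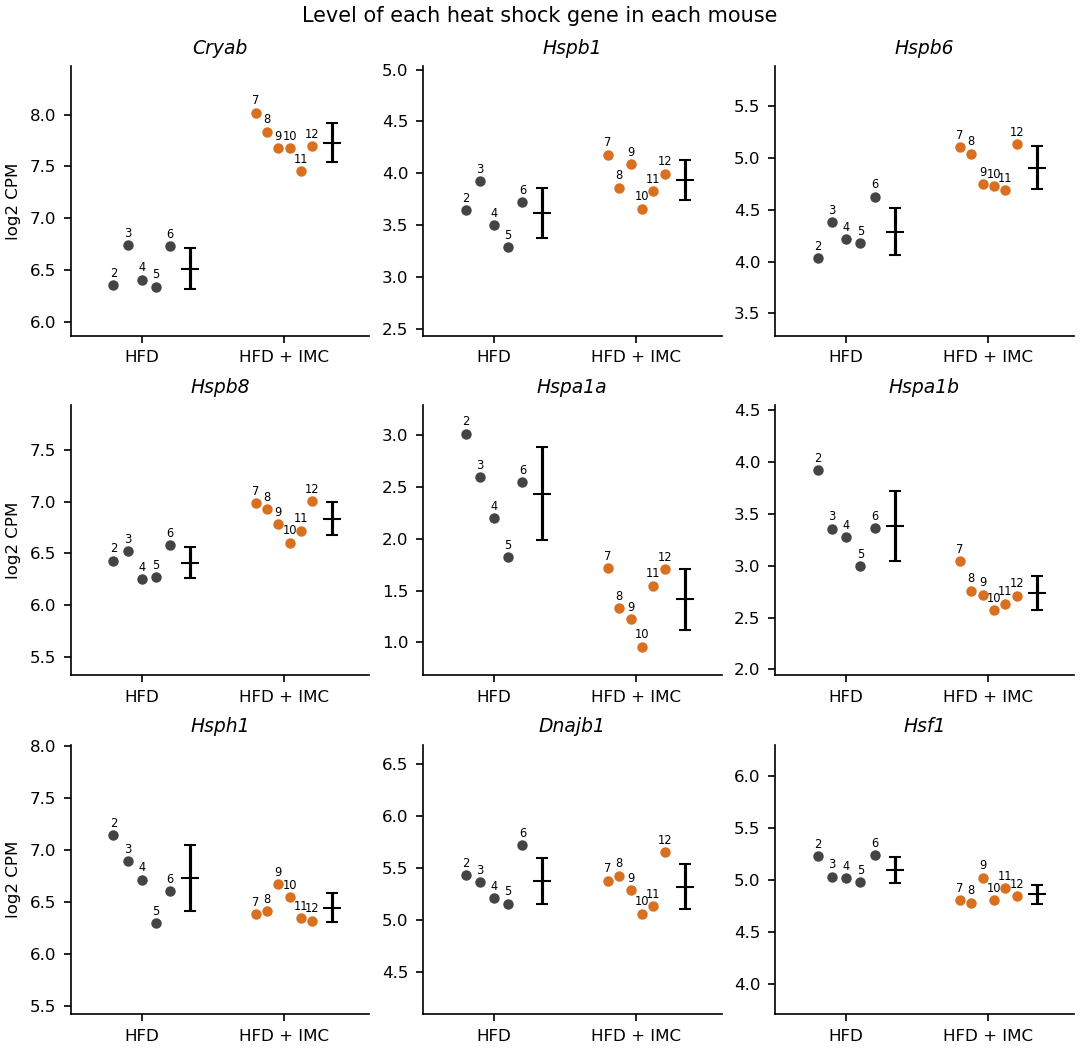
Level of each gene in log2 CPM, with 1 point per mouse (numbered), HFD in grey (n = 5) and HFD + IMC in orange (n = 6), and the mean ± SD beside the points; every panel spans the same number of log2 units. Cryab, Hspb6 and Hspb8 lie higher without overlap in HFD + IMC and Hspa1a lies lower without overlap, with a gap of 0.71 for Cryab and 0.02 for Hspb8.

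By the limma call, 4 of the 9 genes were higher (the small heat shock genes), 3 were lower (Hspa1a, Hspa1b and Hsf1) and 2 were not called (Hsph1 and Dnajb1). Over all listed genes 20% were called higher and 21.0% lower. The groups did not overlap for 3 of the 9 genes on the higher side and 1 on the lower side, against 12.5% and 10.5% of all listed genes. Since the genes were selected on this contrast, nothing is read from these counts. The median log2 fold change of the 9 genes was -0.05, and that of all listed genes was -0.03.

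The call of Hspb1 was lost under 9 of 17 alternatives, among them leaving out HFD mouse 2, 4 or 5 or HFD + IMC mouse 7, 8, 9 or 12, which gave log2 fold changes from 0.24 to 0.33. Hsph1 gained a call without HFD mouse 5 (log2 fold change -0.39) and under total-count scaling (-0.32). The other 7 genes kept their side of the threshold under all 17 alternatives. Since the genes were chosen on this contrast, nothing is read from how their calls held.

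In whole tissue, fewer cells of a type and less RNA per cell cannot be told apart. Of 10 adipocyte markers, 9 rose in HFD + IMC. The summed level of all 10 was 18751 to 23195 CPM in HFD against 28490 to 33033 CPM in HFD + IMC. Lpl was not called (log2 fold change 0.15, limma adjusted p = 0.315). It had the highest mean of the 10 in both diets, 13.3 and 13.4 log2 CPM, and so weighs most in that sum. Of 10 macrophage markers, 8 fell, with sums of 11354 to 15514 CPM against 6037 to 9837 CPM. Of 8 smooth muscle markers 6 were listed, of which Acta2 and Mylk rose and 4 were not called. Those 4 had log2 fold changes of -0.20 (Des), 0.01 (Tagln), 0.02 (Smtn) and 0.48 (Myh11), and the summed level of the 6 was 274 to 423 CPM against 464 to 596 CPM. These shifts run the same way as the small heat shock genes for the adipocyte markers and for Acta2, Mylk and the smooth muscle sum, and the same way as the HSP70 genes for macrophage markers, and their part in the differences was not tested.

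Cryab and Hspb6 are also muscle genes. Of 15 skeletal muscle markers 6 were listed, and the abundant Ckm, Mb, Myh1, Myh4, Tnnt3, Tnnc2, Mylpf and Ttn were not in the table, nor was Myh7. Acta1, Myh2 and Pvalb rose, and the summed level of the listed markers was 25.6 to 35.4 CPM in HFD and 48.1 to 79.8 CPM in HFD + IMC. The other 3 listed markers were not called, with log2 fold changes of -0.27 for Tnni2, -0.12 for Actn3 and 0.01 for Ryr1. Their part in the difference was not tested.

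Endothelial markers had 1 of 5 genes called, higher, with sums of 318 to 442 CPM in HFD and 386 to 528 CPM in HFD + IMC. Progenitor and fibroblast markers had 3 of 6 called, all lower (8745 to 11008 CPM against 6829 to 8869 CPM). Mesothelial markers had 1 of 5 listed genes called, lower (225 to 310 CPM against 104 to 253 CPM), and Msln was not in the table. Immediate early genes, which like HSP70 respond within minutes of stress or handling, had 7 of 9 listed genes called, all lower, with sums of 793 to 1030 CPM in HFD and 526 to 721 CPM in HFD + IMC. Those sums did not overlap between the diets. Their part in the lower HSP70 level was not tested.

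The spread between mice on the same diet was not used in choosing the genes. The median within-group SD of all listed genes was 0.13 on the log2 scale. Hspa1a had an SD of 0.37, above 93.1% of all genes, though low counts add to it, since genes within 0.5 log2 CPM of its level had a median SD of 0.26. Hsph1 had an SD of 0.23, above 94.1% of the 1912 genes of similar level, whose median was 0.10. Dnajb1 (SD 0.22) lay above 90.4%, Cryab (0.19) above 88.0% and Hspb6 (0.22) above 87.3% of the genes of similar level. By the same measure Hspb8 (0.15) lay above 81.4%, Hspa1a above 80.3%, Hspb1 (0.21) above 76.9% and Hspa1b (0.26) above 75.3%. Hsf1 was steadier, with an SD of 0.11 that lay above 48.2% of such genes.

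HFD mice 2 and 5 held much of the spread of the inducible genes. Relative to the HFD mean, mouse 2 was at +0.58 for Hspa1a, +0.54 for Hspa1b and +0.41 for Hsph1, and mouse 5 was at -0.61, -0.39 and -0.44 for the same genes. For Dnajb1, HFD mouse 6 and HFD + IMC mouse 12 stood highest, at +0.35 and +0.33 above their group means.

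Whether the genes varied together among mice on the same diet was asked with the deviation of each mouse from its group mean. All 36 pairs were compared by Pearson's r over the 11 mice, with an exact permutation test of mice within groups (two-sided, 86400 orders) and Benjamini-Hochberg adjustment over the 36 pairs. In 33 of 36 pairs r was above 0, and the median was 0.47, while the median over all 81747291 pairs of listed genes was 0.0038. One pair, Hspb8 with Dnajb1, passed (r = 0.90, exact permutation p = 0.000405, adjusted p = 0.0146, n = 11). Spearman's rho for it was 0.93 (adjusted exact permutation p = 0.0154). Of all pairs of listed genes, 0.0998% reached that r.

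Without the 2 mice farthest from the median of Hspb8, HFD mouse 4 and HFD + IMC mouse 10, r for Hspb8 and Dnajb1 was 0.87. Within the 6 HFD + IMC mice alone r was 0.92 (exact permutation p = 0.00972, adjusted p = 0.225), and no value was computed for the 5 HFD mice, since correlations were read over at least 6 mice. The relation kept its size whichever mouse was left out, at r from 0.88 to 0.94, but the adjusted exact permutation p rose to 0.0625 without HFD mouse 4, 0.102 without mouse 5, 0.0917 without mouse 6 and 0.05 without HFD + IMC mouse 10.

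Apart from that pair no relation passed the adjustment, although 10 of the 36, that pair included, had an unadjusted p under 0.05. The 6 pairs among the small heat shock genes had r from 0.49 to 0.82, with a median of 0.73. The 6 pairs among the inducible chaperones ranged from 0.02 to 0.84, with a median of 0.54, the highest being Hspa1a with Hspa1b (r = 0.84, adjusted exact permutation p = 0.0716), which share sequence. Between small and inducible genes the median was 0.45, and Hsf1 with the other genes gave -0.13 to 0.49. Leaving out HFD mouse 2 brought 4 further pairs past the adjusted threshold, namely Hspb6 with Hspb8 (r = 0.93), Hspb6 with Dnajb1 (0.92), Cryab with Hspa1b (0.84) and Hspb1 with Hspa1b (0.84). Leaving out HFD + IMC mouse 12 brought Cryab with Hspb6 past it (r = 0.89).

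The same deviations were set against the summed level of each of the 8 marker lists, a comparison chosen after seeing the data, and the 72 relations were adjusted together. Of these, 13 had an unadjusted p under 0.05 and 2 passed the adjustment, both with the adipocyte sum. For Hspb6 r was 0.91 (exact permutation p = 0.000359, adjusted p = 0.0258, n = 11) and rho was 0.87 (adjusted exact permutation p = 0.0233). For Cryab r was 0.87 (exact permutation p = 0.00123, adjusted p = 0.0442, n = 11) and rho was 0.87 (adjusted exact permutation p = 0.105). Without HFD mice 2 and 6, the farthest from the median of the adipocyte sum, r was 0.87 for Hspb6 and 0.88 for Cryab. Left out in the same way, it was 0.90 for Hspb8, 0.76 for Dnajb1 and 0.70 for Hspb1. It was 0.64 for Hspa1b, 0.53 for Hspa1a, 0.13 for Hsph1 and -0.29 for Hsf1, so a high r was not particular to Hspb6 and Cryab.

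With 1 mouse left out, r with the adipocyte sum was 0.88 to 0.94 for Hspb6 and 0.84 to 0.91 for Cryab. The adjusted exact permutation p stayed under 0.05 in 3 of those 11 settings for Hspb6 (without HFD mouse 5 or HFD + IMC mouse 10 or 12) and in 1 for Cryab (without HFD mouse 5), and reached 0.121 and 0.245. Hspb8 (r = 0.72, adjusted exact permutation p = 0.213) and Dnajb1 (r = 0.61, adjusted exact permutation p = 0.274) did not pass with the adipocyte sum. With the macrophage sum r was -0.85 for Hspb6, -0.71 for Hspb8 and -0.67 for Dnajb1 (adjusted exact permutation p = 0.0853, 0.238 and 0.253). It was positive for Hsph1 and Hsf1, at 0.57 and 0.34 (adjusted exact permutation p = 0.253 and 0.709). Hspa1a and Hspa1b had r of -0.13 and 0.17 with the macrophage sum. With the immediate early sum they had r of -0.05 and 0.18 (adjusted exact permutation p = 0.9065 for each of these). Over the 9 genes r with the immediate early sum ran from -0.66, for Dnajb1, to 0.18, none passing. For Dnajb1 it was -0.03 without HFD mouse 6 and HFD + IMC mouse 12. With the progenitor and fibroblast sum r ran from -0.68, for Dnajb1, to 0.15, none passing. With the smooth muscle sum r ran from 0.08 to 0.75, and with the skeletal muscle sum from -0.42 to 0.37, none passing. The skeletal muscle values rest on 2 mice, since without HFD mouse 2 and HFD + IMC mouse 10 r was 0.85 for Cryab, 0.83 for Hspb8 and Hspa1a, 0.82 for Hspa1b and 0.79 for Hspb6. It was 0.67 for Hspb1, 0.57 for Dnajb1, 0.09 for Hsph1 and -0.04 for Hsf1. With the smooth muscle sum, leaving out HFD mice 3 and 6 took r from 0.68 to 0.28 for Cryab and from 0.51 to 0.04 for Hspb1. It went from 0.73 to 0.52 for Hspb6, 0.75 to 0.63 for Hspb8 and 0.71 to 0.74 for Dnajb1. The part of these cell type markers in the relations between the 9 genes was not tested.

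**Figure D2:**
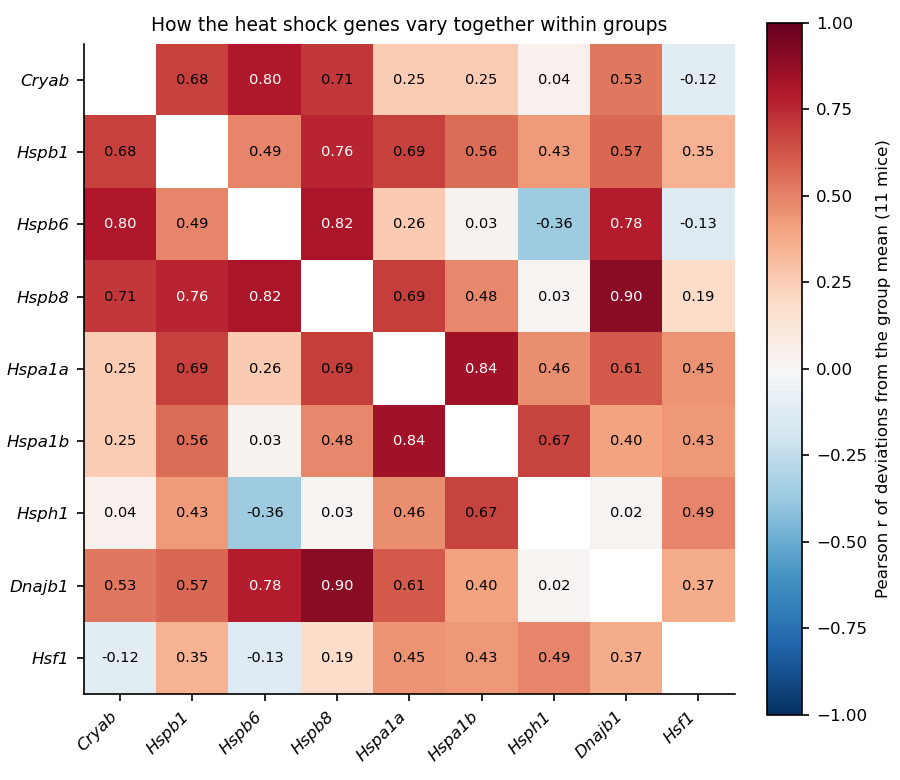
Pearson r between each pair of the 9 genes over 11 mice, computed on log2 CPM after subtracting each group's mean, with colour from -1 (blue) to 1 (red). The block of small heat shock genes is red throughout (0.49 to 0.82), Dnajb1 sits closest to Hspb8 (0.90), and Hsph1 is near 0 with Cryab, Hspb8 and Dnajb1.

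**Figure D3:**
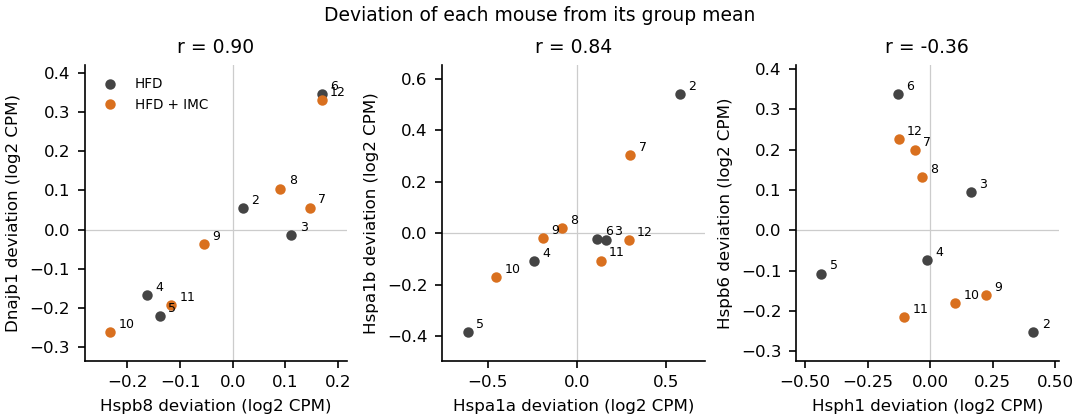
Deviation of each mouse (numbered) from its group mean in log2 CPM for 3 pairs of genes, HFD in grey (n = 5) and HFD + IMC in orange (n = 6). Hspb8 and Dnajb1 line up with r = 0.90, Hspa1a and Hspa1b with r = 0.84, where mice 2 and 5 lie at the ends, and Hsph1 and Hspb6, the pair with the lowest r, with -0.36.

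The r of Dnajb1 was 0.90 with Hspb8 and 0.78 with Hspb6, and 0.02 with its HSP110 partner Hsph1. The difference between these values was not tested. The gene nearest to Hsph1 among all other listed genes was another chaperone, Hspa8, which encodes the constitutive HSP70 (r = 0.95 over 11 mice).

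The other genes most like each of the 9 were read by the same group-centred r over 11 mice, as a description with no test. For Cryab these were Gpx4 (0.97), which repairs lipid peroxides, Dbi (0.95), an acyl-CoA binding protein, and Prr32 (0.94). For Hspb6 they were Prr16 (0.98), Mrap (0.97), an adipocyte-expressed partner of melanocortin receptors, and Hist1h4h (0.97). For Hspb8 they were Tssc1 (0.96), Abhd11 (0.95) and Hibadh (0.94), a mitochondrial enzyme of valine breakdown, and for Hspb1 they were Jmjd8 (0.96), Bola3 (0.95) and Irs1 (0.93), the insulin receptor substrate.

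The nearest genes to Hspa1a were Nucb1 (0.92), Fam65a (0.89) and Msantd2 (0.87), and those to Hspa1b were Ciao1 (0.94), Atp6v1h (0.92) and Rabif (0.92). After Hspa8, Hsph1 was nearest to D17Wsu92e (0.94) and Kalrn (0.94). Dnajb1 was nearest to Trhde (0.96), Nfil3 (0.96), a repressor in the circadian system, and Pitpnb (0.95). Hsf1 was nearest to Fam214b (0.89), Map2k2 (0.89) and Samd1 (0.88). Among 12787 genes some reach such values in any data set of 11 mice, and all the values share the same libraries and scaling.

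Levels can be set side by side only per length. Per kilobase of exon (GENCODE M21 basic transcripts), Cryab was the most abundant of the 9 in HFD, at 6.15 ± 0.20 log2 CPM per kb (SD, n = 5), followed by Hspb8 at 5.55 ± 0.15 and Hsph1 at 4.65 ± 0.32. In all 5 mice each of these lay above the next. Hsf1 (3.93 ± 0.13), Hspb6 (3.84 ± 0.23), Dnajb1 (3.70 ± 0.22) and Hspb1 (3.57 ± 0.24) followed within their spread of each other, a neighbour being above the next in 3 or 4 of 5 mice. Hspa1b (1.90 ± 0.34) and Hspa1a (0.87 ± 0.45) were lowest in every mouse. Reads that match both of these copies could not be assigned, so both levels may be undercounts and the order between the 2 depends on how reads were split.

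In HFD + IMC the order again began with Cryab (7.36 ± 0.19, n = 6) and Hspb8 (5.98 ± 0.16). Hspb6 (4.46 ± 0.21) and Hsph1 (4.37 ± 0.14) came next and could not be ordered, Hspb6 lying above Hsph1 in 3 of 6 mice. Hspb1 (3.89 ± 0.19) followed, above Hsf1 (3.69 ± 0.09) in 5 of 6 mice, and Hsf1 lay above Dnajb1 (3.64 ± 0.21) in 3 of 6, and Hspa1b (1.25 ± 0.16) and Hspa1a (-0.15 ± 0.30) were again at the bottom. With the exons of all transcripts, an alternative chosen after seeing the data, the HFD levels of Hsph1 (3.87), Hspb6 (3.09) and Hsf1 (2.27) were lower and Hsf1 dropped to position 7 of 9, so the order in the middle depends on which transcripts are counted.

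**Figure D4:**
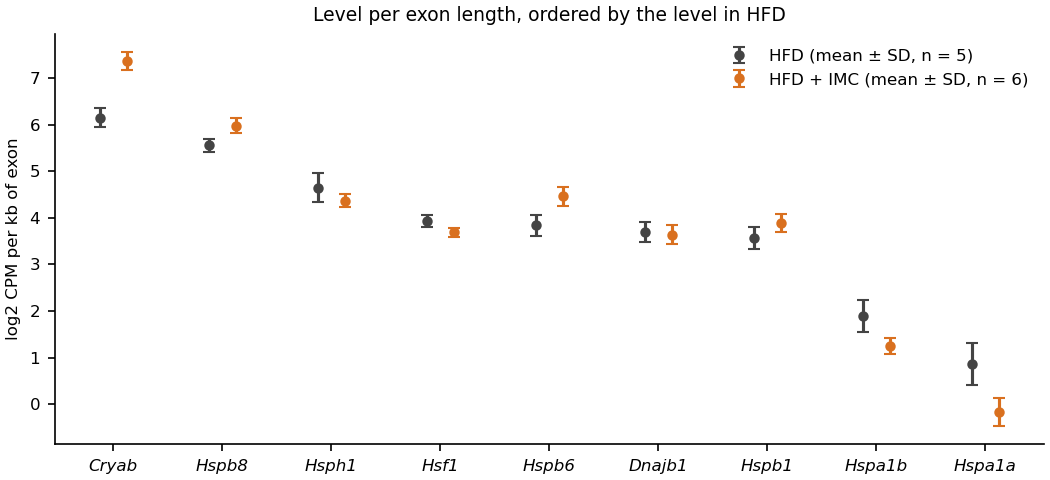
Mean level ± SD of each gene per kilobase of exon, in log2 CPM per kb, in HFD (grey, n = 5) and HFD + IMC (orange, n = 6), ordered by the level in HFD. Cryab is highest in both diets (6.15 and 7.36) and Hspa1a lowest (0.87 and -0.15).

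The 9 genes lie on 6 chromosomes. In the RefSeq annotation of mm10, Cryab is at chr9:50745951-50756636, Hspb1 at chr5:135887919-135889563, Hspb6 at chr7:30552535-30555443, Hspb8 at chr5:116408491-116422864, Hspa1a at chr17:34969359-34972156, Hspa1b at chr17:34956429-34959238, Hsph1 at chr5:149616843-149636498, Dnajb1 at chr8:83608175-83612653 and Hsf1 at chr15:76477362-76501155. Cryab and Hspb2 are divergent neighbours on opposite strands that share 252 exonic bases in the annotation. Hspb6 shares 122 exonic bases with Proser3 and 3 with Lin37, both on the opposite strand and neither called (log2 fold changes -0.29 and -0.18, limma adjusted p = 0.216 and 0.124), and 77 bases with the miRNA gene Gm38670. Hspa1a shares 564 exonic bases with Gm20481. The library kit kept the strand, but the strand setting of the counting was not stated, so reads of overlapping genes may be mixed.

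The rest of the chaperone system was read from lists of 72 genes, of which 63 were listed. Of these 63, 15 rose, 16 fell and 32 were not called by limma over all listed genes, which is 49.2% called against 40.9% of all listed genes. Their median log2 fold change was -0.05.

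Of the 5 other small heat shock genes, Hspb2 and Hspb7 were listed, and both rose. Hspb2, the divergent neighbour of Cryab and mainly known from muscle, averaged 1.49 ± 0.26 log2 CPM in HFD and 2.42 ± 0.37 log2 CPM in HFD + IMC (SD), and so rose by 0.93 on the log2 scale (SE 0.18, limma adjusted p = 0.00147). Hspb7, the cardiovascular small heat shock gene, rose by 0.43 (SE 0.12, limma adjusted p = 0.0105). In both genes the groups did not overlap. Hspb3, Hspb9 and Cryaa were not in the table. All 6 small heat shock genes listed here, the 4 above and these 2, had a higher mean in HFD + IMC. Since the 4 were chosen with this contrast known, nothing is read from that count. Reads of Hspb2 may also be mixed with those of Cryab where their exons overlap.

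Of the 7 listed HSP70 and HSP110 genes outside the 9, 3 rose and 1 fell. Hspa12a, a distant HSP70 relative, rose by 0.92 (SE 0.09, limma adjusted p = 2.67e-05), its relative Hspa12b rose by 0.44 (SE 0.13, adjusted p = 0.0167) and Hspa14, which works at the ribosome, rose by 0.18 (SE 0.05, adjusted p = 0.0126). Hspa8 fell by 0.30 on the log2 scale (SE 0.11, limma adjusted p = 0.0418), in the same direction as Hspa1a and Hspa1b. This call was lost under 10 of 17 alternatives. They were median-of-ratios scaling (limma adjusted p = 0.0523), limma without a trend (0.0595) and leaving out HFD mouse 2, 3 or 6 or HFD + IMC mouse 7, 8, 10, 11 or 12 (up to 0.111), with log2 fold changes between -0.22 and -0.30.

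Of the 3 HSP90 genes, the mitochondrial Trap1 rose by 0.38 (SE 0.05, limma adjusted p = 0.000201), and neither cytosolic gene was called. Hsp90aa1, the inducible form, differed by 0.06 (SE 0.06, adjusted p = 0.472) and Hsp90ab1 by -0.16 (SE 0.08, adjusted p = 0.14). Both were named after their values were seen.

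Of 14 chaperonins and mitochondrial chaperones, 3 rose and 5 fell. The risers were the mitochondrial Hspd1 (HSP60), Hspa9 (mortalin) and its exchange factor Grpel1, at 0.24, 0.24 and 0.25 on the log2 scale (limma adjusted p = 0.00242, 0.00177 and 0.000869). The mitochondrial Hspe1, Grpel2 and Clpb, named after their values were seen, were not called. They differed by -0.18, -0.18 and 0.34 (limma adjusted p = 0.0532, 0.078 and 0.0899). The 5 that fell were all subunits of the cytosolic TRiC chaperonin, which folds actin and tubulin. They were Cct3, Cct4, Cct5, Cct7 and Cct8, named after their values were seen, with log2 fold changes from -0.22 to -0.14. The TRiC subunits Tcp1, Cct2 and Cct6a, also named after their values were seen, were not called. They differed by -0.07, -0.02 and -0.07 (limma adjusted p = 0.157, 0.75 and 0.265). The calls of Cct7 and Cct8 were lost without HFD mouse 2 (limma adjusted p = 0.0712 and 0.0611), and in addition without HFD mouse 6 or HFD + IMC mouse 7 or 11 for Cct7 (up to 0.0536) and without HFD mouse 4 for Cct8 (0.052).

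Of 15 listed HSP40 genes other than Dnajb1, 4 rose and 3 fell. Dnajc7 fell by 0.18 (SE 0.05, limma adjusted p = 0.00706), Dnajb14 fell by 0.28 (SE 0.08, adjusted p = 0.0141) and the mitochondrial Dnaja3 rose by 0.16 (SE 0.05, adjusted p = 0.0149). Of 19 co-chaperones, 2 rose and 6 fell. Bag4, an anti-apoptotic exchange factor, rose by 0.56 (SE 0.06, limma adjusted p = 3.64e-05), and the HSP90 co-chaperone Sugt1 and the HSP70 exchange factor Hspbp1 fell by 0.27 (SE 0.04, adjusted p = 0.000532) and 0.29 (SE 0.05, adjusted p = 0.00128). Bag3, the heat-inducible partner of Hspb8, was named after its values were seen and differed by -0.05 (SE 0.05, limma adjusted p = 0.488).

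Among 3 listed heat shock factors and regulators other than Hsf1, Hsf4 fell by 0.44 (SE 0.12, limma adjusted p = 0.0105), and Hsf2 and Hsbp1 were not called. The 4 other chaperones named for the run of 3 units in their promoters did not move one way. Hspd1 rose, as above, Dnajb6 fell by 0.28 (SE 0.10, limma adjusted p = 0.0356; up to 0.0992 and no longer called without HFD mouse 2, 3 or 6 or HFD + IMC mouse 8, 9, 10 or 11), and Chordc1 (-0.11) and Hspe1 (-0.18) were not called.

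**Figure D5:**
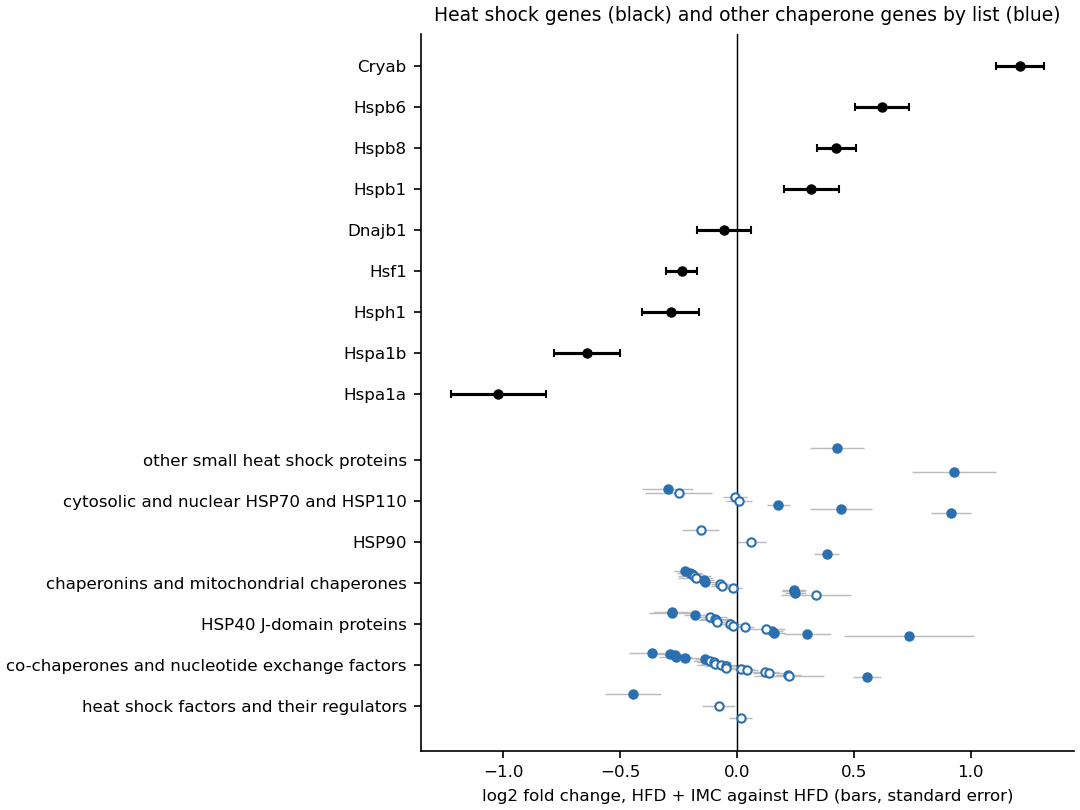
Log2 fold change of HFD + IMC against HFD with its standard error, for the 9 heat shock genes (black, no test) and for 63 other chaperone genes by list (blue, filled where the limma adjusted p was under 0.05). The black points run from 1.21 for Cryab to -1.02 for Hspa1a, and both other small heat shock genes lie above 0.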

How the data were processed

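RNA from gonadal WAT of 11 mice was sequenced after a directional TruSeq preparation. Trim Galore and STAR (mm10) were the authors' tools for trimming, alignment and counting per gene. They removed genes with low counts and scaled libraries by the upper quartile. The deposited values are log2 CPM for 12787 genes. The deposited table also holds the authors' own log2 fold changes, likelihood-ratio score and p-values, which were not used.

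The log2 CPM of every gene gave back whole reads within 1e-07 (100% of values), which set the depth, the sums and the voom alternative. Groups were compared with limma 3.58.1 in R 4.3.3, with a mean-variance trend and Benjamini-Hochberg adjustment over all 12787 genes. The tests were checked on simulated data. Precision is limited by 5 and 6 mice, and nothing but the labels says the libraries are separate animals. The 9 genes and all lists were chosen with earlier results of these data known. Named genes are the 9, the 3 genes most like each, the called genes with the 3 smallest p in each chaperone list, annotated overlaps, and those stated to be named after their values were seen. Lengths came from GENCODE M21. No table of protein sequences was used here. Alternatives were 2 other scalings, 2 added reads, a filter, voom, no trend and each mouse left out.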

Additional observations from a re-analysis of the deposited data

How the results depend on the processing

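The count of genes called was 5236, and it lay between 5053 and 5464 under 6 other settings and between 4299 and 5125 when 1 mouse was left out. Total-count scaling gave 2203 higher and 3261 lower, or 40.3% higher against 48.8%. Among the 63 other chaperones the count of 31 lay between 29 and 34, and between 24 and 31 without 1 mouse. The fold changes of the 9 genes moved by less than the spread between mice in all 160 comparisons, but little is read from that. Leaving out 1 of 5 or 6 mice can hardly shift a mean that far. Dropping the trend or adding the filter leaves a fold change as it was. Under the alternatives Cryab ran from 1.15 to 1.27, Hspb1 from 0.24 to 0.40 and Hspa1a from -1.17 to -0.88. Dnajb1 ran from -0.12 to 0.03. The count of member pairs that passed was 1, went to 0 in the 6 HFD + IMC mice alone, and lay between 0 and 5 when 1 mouse was left out, and the cause was not tested. Of 459 fold changes of other named chaperone genes under the same alternatives, 23 lost their call and 436 kept their side of the threshold. The alternatives were extended to these genes after seeing the data, but not to Tcp1, Cct2, Cct6a, Hspe1, Grpel2, Clpb, Chordc1, Hsf2 and Hsbp1. No paired analysis was possible because the mouse numbers of the 2 groups are not shared. Only 48 to 179 reads per mouse stand behind Hspa1a, so its spread includes counting error.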
